A study of Mus musculus with 217 samples.

Results

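The calcium pumps described here are the 2 sarco/endoplasmic reticulum pumps (SERCA) Atp2a2 and Atp2a3 and the 4 plasma membrane pumps (PMCA) Atp2b1, Atp2b2, Atp2b3 and Atp2b4. They are 6 of the 12270 genes listed in at least 1 of 3 tables, and every member was listed in all 3. The family was taken by gene name, except that Atp2a3 was selected on its measured 24 h amplitude in the nucleus accumbens, so its rhythm there is a description with no test. RNA came from bilateral punches of 1 mm from 3 parts of the striatum of C57BL/6J mice for which the labels name no mutation or treatment of about 10 weeks: the nucleus accumbens (NAc, 77 libraries), the dorsomedial striatum (DMS, 70) and the dorsolateral striatum (DLS, 70). Both sexes were kept with lights on for 12 h and off for 12 h, and tissue was taken at 1 of 6 Zeitgeber times (ZT, hours after lights on): ZT2, ZT6, ZT10, ZT14, ZT18 and ZT22. Each sex and time had 5 to 7 animals per region, each library is 1 animal, and 93 animals gave 1 to 3 regions each.

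Calcium ions that enter a neuron or leave its internal stores must be removed again, and P-type pumps do this at the cost of ATP. SERCA pumps return calcium to the endoplasmic reticulum: Atp2a2 encodes the form found in nearly all cells, and Atp2a3 a form known mostly from blood cells, endothelium and some epithelia and neurons. PMCA pumps push calcium out of the cell and are switched on by calmodulin. Atp2b1 and Atp2b4 are widely expressed, while Atp2b2 and Atp2b3 are found mainly in neurons and a few other excitable or sensory cells.

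All P-type pumps pass the phosphate of ATP to 1 aspartate. The coding sequence around it is shown for 4 members because it lets a reader see how alike the pumps are at their most conserved site and why their reads can still be told apart. Each line gives 45 coding bases of the GENCODE M21 transcript with the longest coding sequence, 5′ to 3′, on the coding strand of GRCm38, with the codons of the aspartate and the 4 residues after it in capitals.
Atp2a3, chr11:72975591-72975635, plus strand, exon 8: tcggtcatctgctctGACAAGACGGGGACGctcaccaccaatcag
Atp2b1, chr10:98999802-98999846, plus strand, exon 10: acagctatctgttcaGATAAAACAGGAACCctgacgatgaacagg
Atp2b2, chr6:113789888-113789932, minus strand, exon 13: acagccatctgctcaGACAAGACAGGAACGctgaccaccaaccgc
Atp2b4, chr1:133731798-133731842, minus strand, exon 10: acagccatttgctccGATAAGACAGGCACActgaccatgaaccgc

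Within this window Atp2b2 and Atp2b4 differed at 7 of 45 bases, and Atp2b1 at 10 from each of them. Atp2a3 differed at 18 from Atp2b1, at 15 from Atp2b4 and at 10 from Atp2b2. Over the whole aligned coding sequence the 2 SERCA genes were 69.9% identical, and PMCA pairs between 71.5% (Atp2b1 and Atp2b4) and 78.0% (Atp2b2 and Atp2b3). The longest identical run of any pair was 56 bases, between Atp2b2 and Atp2b3, shorter than the reads of 75 bases. No window of 75 bases in the transcripts of Atp2a3, Atp2b2 or Atp2b3 occurred in a transcript of another gene. In Atp2a2, 2.42% of such windows did, all in Gm43361 or Gm30970, of which Gm43361 lies on the opposite strand and shares 83 exon bases. The shares in Atp2b1 and Atp2b4 were 0.474% and 0.0485%, with no other pump among the genes concerned. The strand setting of the counting is not given in the sources used here, so reads of the overlap in Atp2a2 are uncertain.

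Facts of the libraries bear on the values below. The depth recovered from the tables was between 35.7 and 57.5 Mreads (Mreads, mega-reads) per library in DMS and between 29.7 and 56.8 Mreads in DLS. The depth in NAc is unknown. Medium spiny neurons, the main cells of the striatum, were represented by all 7 of their markers in every region, and none of 7 lymphocyte markers was listed in any table. The DMS libraries fall into 2 classes by the share of normalised counts in mitochondrial ribosomal RNA, 37 at 19.02 to 29.9% and 33 at 35.3 to 52.6%. The classes were unevenly spread over the day, with the high class in 2 of 12 libraries at ZT22 and 10 of 12 at ZT18. DMS rhythms and sex differences are therefore also given from a fit with the class as a term. In 1 DLS library, from a male at ZT6, Gm42418 and Gm26917, a pair of genes known to overlap ribosomal RNA repeats, held 68.4% of the normalised counts. In tissue, fewer cells of a type and less RNA per cell cannot be told apart.

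Atp2a2 was the most abundant pump and Atp2a3 the least in every library of all 3 regions, on the scale of normalised counts per kilobase of exon. In NAc, the median level per kilobase was 2974 for Atp2a2, 1853 for Atp2b2, 1706 for Atp2b1, 454 for Atp2b3, 382 for Atp2b4 and 22.8 for Atp2a3. Atp2b2 was above Atp2b1 in 45 of 77 NAc libraries and Atp2b3 above Atp2b4 in 52 of 77, so neither pair of neighbours was cleanly separated. In DMS the medians per kilobase were 4680 for Atp2a2, 3372 for Atp2b1, 3335 for Atp2b2, 525 for Atp2b3, 155 for Atp2b4 and 33.3 for Atp2a3. Atp2b1 exceeded Atp2b2 in 43 of the 70 DMS libraries, while every other neighbouring pair kept its order in 70 of 70. DLS had the same order, at 4743, 3162, 2727, 381, 95.1 and 25.6 per kilobase. Here Atp2b1 was above Atp2b2 in 67 of 70 libraries. Atp2a3 therefore made up a small part of the SERCA messenger per kilobase: 0.800% ± 0.369 (SD, n = 77) in NAc, 0.698% ± 0.201 (SD, n = 70) in DMS and 0.537% ± 0.157 (SD, n = 70) in DLS. Lengths are the union of annotated exons, and the isoforms used in these tissues were not measured. The top rank of Atp2a2 depends on these lengths. Before division by length, the median normalised counts of Atp2b1 and Atp2b2 were above that of Atp2a2 in all 3 regions. In DMS they were 51314, 42055 and 28456. The 3 tables were normalised separately, so levels were not tested between regions.

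**Figure D1:**
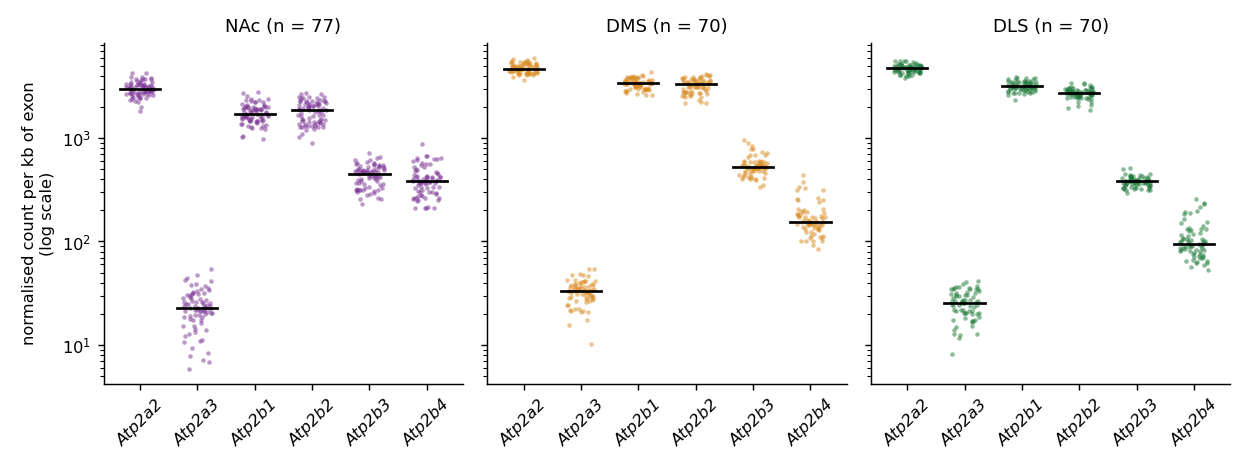
Normalised count per kilobase of exon (log scale) of each pump gene in every library of NAc (77), DMS (70) and DLS (70); points are libraries and black lines medians. Atp2a2 lies highest and Atp2a3 lowest in each region, with medians of 2974 and 22.8 in NAc.

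Atp2a3 was lowest at ZT14, early in the dark, in all 3 regions, and highest at ZT2 or ZT6. All values here are log2 normalised counts. In NAc the libraries at ZT6 ran from 6.64 to 8.18 with a median of 7.35 (n = 13), and those at ZT14 from 5.00 to 7.02 with a median of 6.45 (n = 13). The ranges overlapped, but 8 of the 13 ZT14 libraries lay below every ZT6 library. The NAc time means were 7.16 at ZT2, 7.29 at ZT6, 6.72 at ZT10, 6.31 at ZT14, 6.38 at ZT18 and 7.15 at ZT22. The fitted 24 h curve had an amplitude (peak above mean, log2) of 0.53 ± 0.09 (SE) and a peak at 2.96 h. These NAc values are what the gene was chosen for.

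The DMS and DLS libraries were not used in that choice, although many came from the same animals. In DMS, Atp2a3 ran from 7.34 to 8.17 at ZT2 with a median of 7.65 (n = 12) and from 5.77 to 7.67 at ZT14 with a median of 7.03 (n = 11). Here 7 of the 11 ZT14 libraries lay below every library of ZT2. The time means of DMS were 7.66, 7.51, 7.55, 6.99, 7.34 and 7.32 from ZT2 to ZT22. Atp2a3 was rhythmic there, with an amplitude of 0.24 ± 0.06 (SE, log2), a trough-to-peak change of 1.39-fold, a peak at 3.82 h and an adjusted p of 0.00706 (limma, 24 h cosine and sine, Benjamini-Hochberg over all genes). With the class term the amplitude was 0.22 ± 0.07, the peak 3.98 h and the adjusted p 0.0347. That call was lost when a male at ZT14 with number 22 was left out. The adjusted p with the class term was then 0.0814, the largest over all fits that each left out 1 library. Within the low class alone (37 libraries) the amplitude was 0.17 ± 0.09 and within the high class (33 libraries) 0.28 ± 0.11, with peaks at 4.58 and 3.503 h, and neither passed (adjusted p 0.357 and 0.159). With the mitochondrial rRNA share itself as a covariate the Atp2a3 rhythm amplitude in DMS was 0.20 and the adjusted p 0.0580, and with libraries scaled to equal sums 0.41 and 0.00047.

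In DLS, Atp2a3 ran from 6.81 to 7.56 at ZT2 with a median of 7.34 (n = 11) and from 5.47 to 6.94 at ZT14 with a median of 6.74 (n = 12). The groups overlapped by little, since 10 of the 11 ZT2 libraries were above every ZT14 library. The DLS means from ZT2 to ZT22 were 7.33, 7.16, 7.21, 6.51, 6.74 and 7.12. The rhythm had an amplitude of 0.36 ± 0.07 (SE, log2), a 1.65-fold change, a peak at 3.55 h and an adjusted p of 0.00021, and leaving out each library in turn gave adjusted p values up to 0.000477. The amplitude exceeded that of 99.5% of genes in the DLS table, beside 89.9% in DMS. The rhythm of Atp2a3 was not found to differ between DMS and DLS (joint fit with the animal as a block, adjusted p 0.820), and no comparison of it with NAc is given.

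**Figure D2:**
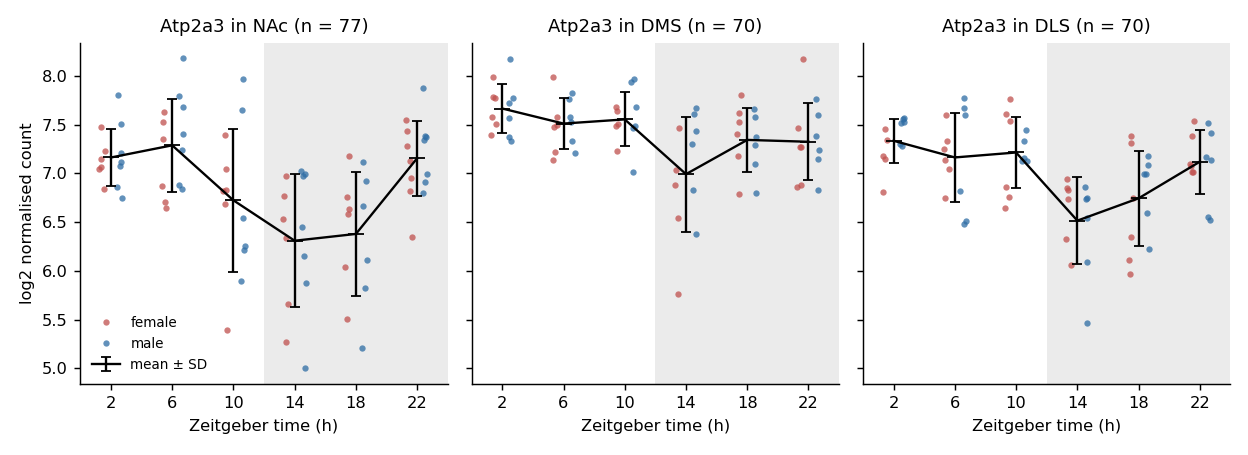
Atp2a3 (log2 normalised count) by Zeitgeber time in NAc, DMS and DLS; points are libraries coloured by sex, black lines join time means with their SD, and grey marks the dark phase. The mean is lowest at ZT14 in each region, at 6.31, 6.99 and 6.51.

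Atp2a3 is a scarce transcript, and its values rest on a median of 179.5 reads per library in DMS (29 to 376) and 137 in DLS (12 to 284). After time and sex (and class in DMS) were taken out, its SD between libraries was 0.55 in NAc, 0.38 in DMS and 0.41 in DLS, above that of 88.6%, 93.9% and 95.4% of genes. In both sexes the fitted peak fell in the light phase of DMS and DLS. It was at 2.94 h in females and 4.96 h in males in DMS, and at 3.95 and 3.22 h in DLS. In NAc, whose libraries chose the gene, the peaks of females and males were at 2.64 and 3.21 h. Amplitudes of females and males were 0.29 and 0.21 in DMS, 0.32 and 0.40 in DLS, and 0.48 and 0.57 in NAc. With the class term the DMS peaks were 3.07 and 5.12 h and the amplitudes 0.27 and 0.19. The sex difference of rhythm did not pass in DMS or DLS (limma interaction, adjusted p 1.00, or 0.857 with the class term, and 0.931).

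Markers of vessel cells, where this pump is known to be expressed, also changed over the day. Of 8 endothelial markers, 4 were rhythmic in NAc, 7 in DMS (6 with the class term) and 6 in DLS, beside 2.56%, 51.3% (25.2%) and 21% of all genes. Their summed level, fitted in DMS with the class term, had a 24 h amplitude of 0.10, 0.07 and 0.10 (log2) with peaks at 22.3, 22.7 and 23.2 h. The single markers did not share 1 phase: Cldn5, a tight junction protein, peaked at 22.4, 22.4 and 23.1 h, but Ly6c1 was rhythmic with peaks at 16.6, 14.7 and 15.4 h and Slco1a4 in DMS at 13.1 h. With the class term these DMS peaks were 23.68 h for Cldn5, 15.36 h for Ly6c1 and 11.98 h for Slco1a4. Pecam1 and Kdr were also rhythmic in all 3 regions. Without the class term Pecam1 peaked at 23.55, 2.07 and 1.22 h, and Kdr at 0.20, 23.93 and 0.30 h. The summed normalised counts ranged from 2996 to 7241 in NAc, 5757 to 8807 in DMS and 4808 to 7272 in DLS. After time and sex (and class in DMS) were removed, this sum correlated with Atp2a3 at r = 0.15 in NAc (77 libraries), 0.36 in DMS and 0.40 in DLS (70 each). For the sum of 6 mural cell markers r was 0.21, 0.20 and 0.55. Other tissue gave values of like size in 1 region each, with 0.35 for the choroid plexus and ependyma markers in DMS and 0.35 for medium spiny neuron markers in DLS. Of 5 platelet markers only Gp1bb was listed. These correlations are over libraries that share a scaling, and the part of vessel cells in the rhythm of Atp2a3 was not tested.

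The promoter of Atp2a3 is shown because the course of this member over the day had its low point at ZT14 in 3 regions. The 250 bases before its annotated start (RefSeq, GRCm38.p6, chr11:72960919-72961168, plus strand, 5′ to 3′) are printed with every GC box in capitals.
Atp2a3 promoter: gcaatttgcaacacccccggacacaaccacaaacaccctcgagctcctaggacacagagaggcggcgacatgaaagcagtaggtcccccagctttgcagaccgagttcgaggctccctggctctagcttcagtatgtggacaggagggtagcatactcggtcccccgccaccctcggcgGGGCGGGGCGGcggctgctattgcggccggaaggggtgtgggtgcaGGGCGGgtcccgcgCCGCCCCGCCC

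The GC box, GGGCGG on either strand, matched 5 times, with 2 overlapping pairs, and 32.7% of all 32851 promoter windows of this length hold at least 1. The window was 66.8% G and C, beside a median of 52.4%. It held no E-box (CACGTG, in 6.02% of windows), no D-box (TTANGTAA, 2.06%), no element of the Ror and Rev-erb receptors (AGGTCA, 14% of windows), no heat shock element (GAANNTTC, 6.69%), no cAMP element (TGACGTCA, 1.55%), no CCAAT box (CCAAT, 33.8%) and no glucocorticoid element (ACANNNTGT, 5.84%). Both strands were searched. No match says only that these letters are not in this window. Of the 2, 3 and 1 windows of Atp2b1, Atp2b2 and Atp2b4, none held an E-box, and 1 of Atp2b2 held a D-box.

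Atp2a2, the main SERCA gene, changed little in size but passed the test of rhythm in both dorsal regions. In DLS it ran from 14.81 to 15.06 at ZT2 with a median of 14.88 (n = 11) and from 14.61 to 14.87 at ZT10 with a median of 14.69 (n = 11). The groups overlapped only in part, with 10 of the 11 ZT10 libraries below every ZT2 library. The amplitude was 0.09 ± 0.02 (SE, log2), a 1.14-fold change from trough to peak, with a peak at 0.984 h and an adjusted p of 0.0016. In DMS the highest mean was 14.94 ± 0.10 (SD, n = 12) at ZT18 and the lowest 14.73 ± 0.18 (SD, n = 12) at ZT6. All 12 libraries of ZT18 were above the median of ZT6. The fitted amplitude was 0.08 ± 0.02, a 1.12-fold change, with a peak at 20.2 h and an adjusted p of 0.00723. Atp2a2 was slightly higher in the high class of DMS libraries (14.85 ± 0.16, SD, n = 33) than in the low class (14.78 ± 0.14, SD, n = 37), and with the class term the amplitude was 0.09 ± 0.02, the peak 21.2 h and the adjusted p 0.00441. Leaving out each library with that term gave adjusted p values up to 0.00878. In NAc the amplitude was 0.02 ± 0.04 and the adjusted p 0.934, with libraries from 13.45 to 14.66 over all times.

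Atp2b1, the more abundant of the widely expressed PMCA genes, peaked close to lights on in DLS and, in the fit without the class term, in DMS. In DLS its libraries ran from 15.34 to 15.82 at ZT2 with a median of 15.67 (n = 11), beside 15.28 to 15.56 with a median of 15.45 at ZT10 (n = 11). At ZT2, 8 of 11 libraries were above every ZT10 library. The amplitude was 0.09 ± 0.02, a 1.14-fold change, with a peak at 0.389 h and an adjusted p of 0.00689. In DMS the mean was highest at ZT22 (15.73 ± 0.17, SD, n = 12) and lowest at ZT14 (15.55 ± 0.12, SD, n = 11), with an amplitude of 0.09 ± 0.03, a peak at 23.4 h and an adjusted p of 0.0193. This DMS call did not hold with the class term, where the amplitude was 0.07 ± 0.03, the peak 22.3 h and the adjusted p 0.0963. In NAc the amplitude was 0.09 ± 0.05, with an adjusted p of 0.594.

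Atp2b2, the neuronal PMCA gene that rivals Atp2b1 in level, differed between the classes of the DMS libraries. It stood at 15.45 ± 0.15 (SD, n = 37) in the low class and 15.12 ± 0.19 (SD, n = 33) in the high class. Without the class term it passed in DMS (amplitude 0.11 ± 0.04, peak 1.25 h, adjusted p 0.0388), and with it the amplitude was 0.03 ± 0.03 and the adjusted p 0.739. The classes were unevenly spread over the day, so class and time cannot be fully told apart in these fits. Even without the class term the call was lost in 19 of 70 fits that each left out 1 library. In DLS the amplitude was 0.05 ± 0.03 with an adjusted p of 0.310, and in NAc 0.06 ± 0.06 with 0.823.

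Atp2b3, the second neuronal PMCA gene, did not pass in any region in the reported fits. Among the alternatives it passed in DMS with libraries scaled to equal sums, and with time as 6 levels and the class term. In DLS it passed in 5 of 70 fits that each left out 1 library (lowest adjusted p 0.0443). Its amplitude was 0.12 ± 0.06 in NAc, 0.11 ± 0.05 in DMS and 0.07 ± 0.03 in DLS, with adjusted p values of 0.486, 0.0933 and 0.0709. With the class term the DMS amplitude was 0.08 ± 0.04 and the adjusted p 0.203, and the peak was at 9.11 h in place of 5.20 h. The DLS libraries were highest at ZT6, from 10.68 to 11.26 with a median of 10.94 (n = 12), and lowest at ZT22, from 10.48 to 11.02 with a median of 10.73 (n = 12), and overlapped widely. In DMS its residual level moved with the summed level of 3 listed markers of choroid plexus and ependyma (r = 0.74 over 70 libraries), whose sum ran from 68.2 to 72340 normalised counts. The part of that tissue in the values of Atp2b3 was not tested.

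Atp2b4, the other widely expressed PMCA gene, was the PMCA gene whose share of the family differed most, in relative terms, from region to region. Its share of the 4 PMCA genes per kilobase, a ratio within a library that scaling between libraries cannot move, was 9.14% ± 2.45 (SD, n = 77) in NAc, 2.41% ± 1.04 (SD, n = 70) in DMS and 1.70% ± 0.749 (SD, n = 70) in DLS. The NAc libraries ran from 4.95 to 16.7% and the DLS libraries from 0.755 to 4.64%, without overlap. Within animals, NAc was the highest region in 47 of 47 mice that gave all 3 regions, and the order NAc, DMS, DLS held in 33 of them. The share was higher in NAc than in DMS in 62 of 63 animals with both, and in DMS than in DLS in 36 of 51. Atp2b3 had the same direction, with 9.94% of the PMCA total in NAc, 7.43% in DMS and 5.96% in DLS, and was higher in NAc than in DLS in 57 of 57 animals. Atp2b1 went the other way, at 40.0%, 46.2% and 49.8%, and was higher in NAc than in DLS in 1 of 57 animals. No test was run on these shares, since the NAc values carry an adjustment that no label records.

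**Figure D3:**
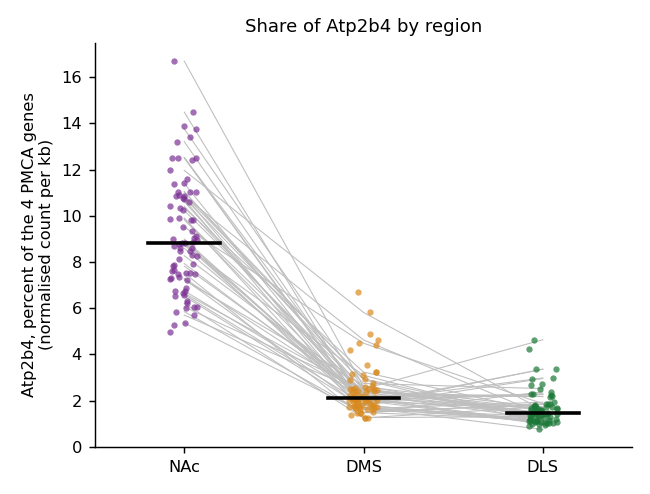
Share of Atp2b4 in the 4 PMCA genes (percent of their normalised counts per kilobase) by region; points are libraries, black lines medians, and grey lines join the 47 animals with 3 regions. NAc libraries reach from 4.95 to 16.7% and DLS libraries from 0.755 to 4.64%.

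Between libraries of 1 region Atp2b4 was also among the more variable genes, with a residual SD of 0.45 in NAc, 0.46 in DMS and 0.52 in DLS, above 77.1%, 96.7% and 98.2% of genes. In DLS its residual level followed the summed level of 4 listed markers of cortical excitatory neurons at r = 0.85 (70 libraries), in DMS that of 2 at r = 0.54 (70 libraries) and in NAc that of 4 at r = 0.25 (77 libraries). That sum ran from 171 to 17480 normalised counts in DLS, 109 to 7699 in DMS and 165 to 21470 in NAc. In DMS it also followed 3 listed markers of the islands of Calleja and septum (r = 0.63), and it ran against the medium spiny neuron markers in each region (r = -0.39 in NAc, -0.65 in both DMS and DLS). The part of tissue next to the punch in the level of Atp2b4 was not tested. It passed the test of rhythm in no region: the amplitudes were 0.16 ± 0.07 in NAc, 0.12 ± 0.08 in DMS and 0.10 ± 0.08 in DLS, with adjusted p values of 0.383, 0.401 and 0.649. With the class term the DMS amplitude was 0.13 ± 0.08 and the adjusted p 0.389.

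Counted together, 4 of 6 pump genes were rhythmic in DMS, beside 51.3% of all genes, and 2 of 6 with the class term, beside 25.2%. In DLS 3 of 6 were, beside 21% of all genes. Each of these counts includes Atp2a3, which was chosen on its NAc amplitude in many of the same animals. In NAc none of the 5 members other than Atp2a3 was rhythmic, beside 2.56% of genes. None of the 5 had an unadjusted p of less than 0.05 in limma there, and no second tool was run on that table. When DLS libraries were instead scaled to equal sums of normalised counts, none of the 3 passed (adjusted p 0.359 for Atp2a2, 0.07 for Atp2a3 and 0.35 for Atp2b1). Equal sums that left the 4 ribosomal RNA genes out, or the male ZT6 library out, again gave 3.

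**Figure D4:**
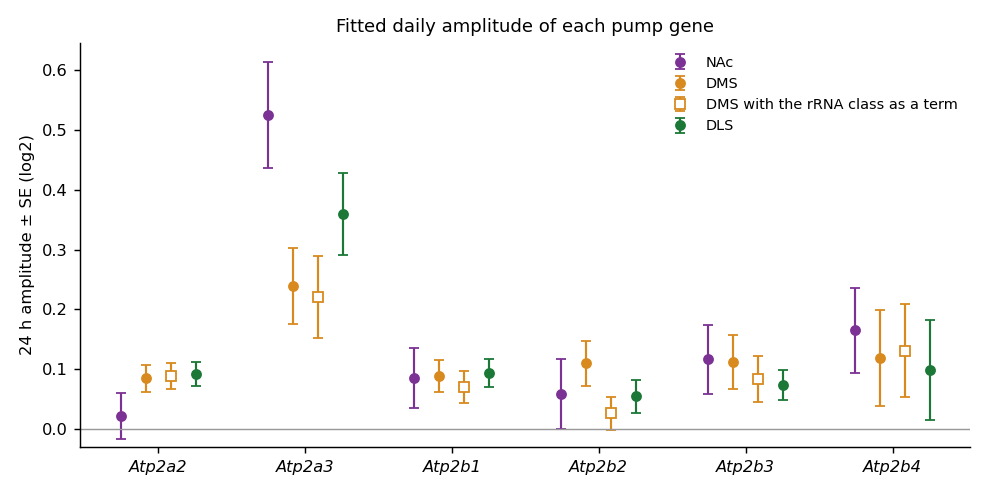
Fitted 24 h amplitude (log2, peak above mean) with its SE for each pump gene in NAc, DMS and DLS, and in DMS with the rRNA class as a term (open squares). Atp2a3 has the highest fitted amplitude in each region, at 0.53, 0.24 and 0.36; the NAc value is what it was picked for.

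The daily course of the members other than Atp2a3 was not found to differ between regions. None of them passed in the joint fits between DMS and DLS, NAc and DMS, or NAc and DLS, where 0%, 0% and 0.31% of all genes did. Unadjusted p values were under 0.05 for Atp2a2 between DMS and DLS, and for Atp2a2 and Atp2b1 in both comparisons with NAc. For Atp2a2 the adjusted p values of those comparisons were 0.525, 0.186 and 0.487. In NAc all 5 genes had their highest mean over both sexes at ZT6 and their lowest at ZT22, with libraries that overlapped: at most 5 of the 14 ZT22 libraries, those of Atp2b4, lay below every ZT6 library. For Atp2b3 and Atp2b4 the NAc mean was lowest at ZT22 in both sexes (10.825 in females and 10.909 in males, and 11.896 and 12.02). For the other genes the means of the 2 sexes ran differently. In NAc females the ZT22 means were 13.97 for Atp2a2, 14.37 for Atp2b1 and 14.11 for Atp2b2, the lowest of the 6 times (n = 7), while in NAc males they were 14.18, 14.79 and 14.55 (n = 7), for Atp2a2 and Atp2b1 the highest of the 6 times. The sex difference of rhythm passed for none of the 5 genes, so these means are a description.

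**Figure D5:**
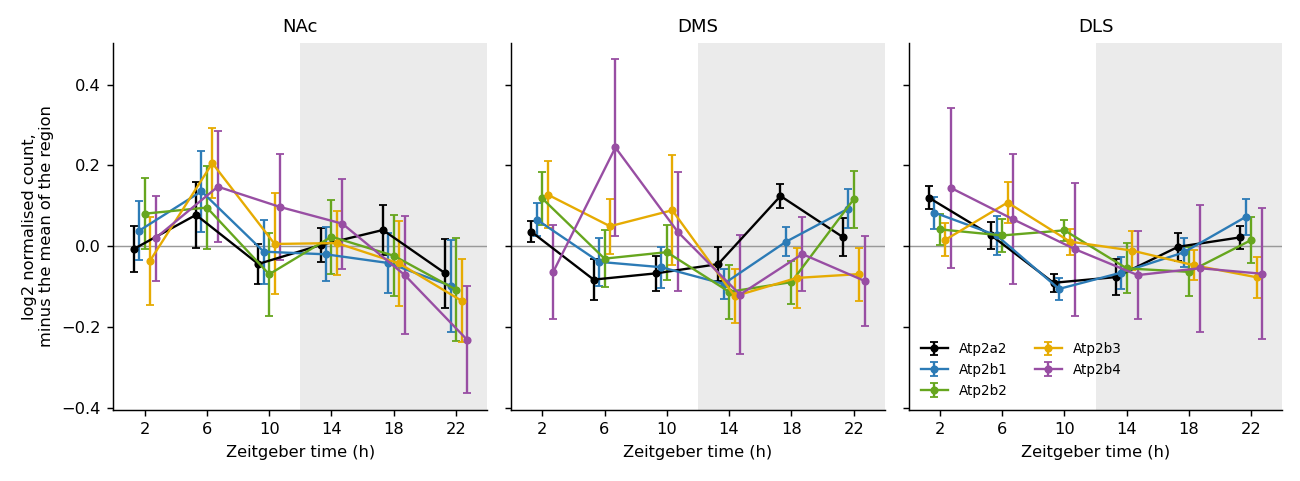
Time means of the 5 members other than Atp2a3 (log2 normalised count minus the mean of the region) with their standard errors in NAc, DMS and DLS; grey marks the dark phase. In DLS Atp2a2 and Atp2b1 are highest at ZT2 and lowest at ZT10, and in NAc the error bars of most times overlap.

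No pump passed the test of a sex difference in level in NAc, DMS or DLS, where 0.0758%, 0.909% and 0.202% of all genes did (limma, time as 6 levels). At an unadjusted p of less than 0.05 there were 0, 2 and 1 members. The 2 in DMS were Atp2a2, at 14.87 ± 0.16 in females (SD, n = 34) and 14.75 ± 0.12 in males (SD, n = 36), with an adjusted p of 0.0582, and Atp2b3, at 11.41 ± 0.25 and 11.25 ± 0.31, with 0.293. With the class term both passed: Atp2a2 was lower in males by a log2 difference of -0.11 ± 0.03 (SE, adjusted p 0.0238) and Atp2b3 by -0.19 ± 0.05 (adjusted p 0.0223), beside 4.21% of all genes. Atp2b3 lies on the X chromosome, and its DMS level moved with the choroid plexus and ependyma markers. The part of either in its sex difference was not tested. In DLS the male minus female difference was -0.03 ± 0.03 for Atp2a2 and -0.03 ± 0.04 for Atp2b3, and the 1 member under 0.05 there was Atp2b4 (-0.26 ± 0.12, adjusted p 0.458). Sex differences of rhythm passed for no member in DMS or DLS (limma interaction). In NAc they passed for none, with Atp2a3 left aside. Of all genes, 0%, 0% and 0% passed in NAc, DMS and DLS. Atp2b4 had an unadjusted p of less than 0.05 for this difference in DLS (adjusted p 0.374), where females had an amplitude of 0.31 ± 0.12 with a peak at 1.77 h and males 0.18 ± 0.12 with a peak at 11.1 h. It also did in DMS with the class term (adjusted p 0.511), with 0.32 ± 0.11 and a peak at 9.09 h in females and 0.11 ± 0.11 and 16.9 h in males. No other member did in DMS, with or without the class term, or in DLS. In NAc none did, with Atp2a3 left aside.

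From library to library the abundant members moved together, while Atp2a3 correlated with them less. After time and sex (and class in DMS) were removed, Atp2a2 and Atp2b1 correlated at r = 0.83 in NAc (77 libraries), 0.83 in DMS and 0.80 in DLS (70 each), and Atp2b1 and Atp2b2 at 0.85, 0.82 and 0.65. Atp2a3 and Atp2a2, the 2 SERCA genes, correlated at 0.08, 0.07 and 0.10. The highest correlations of Atp2a3 with another member were 0.38 with Atp2b2 in DLS and 0.35 with Atp2b3 in DMS. Libraries share a scaling and a mix of cells, so these values are descriptions. The markers of medium spiny neurons correlated with Atp2b1 at 0.65, 0.77 and 0.43 and with Atp2a3 at 0.01, -0.08 and 0.35 in NAc, DMS and DLS. Levels of 1 animal in 2 regions were not found to go together for any member (18 relations over 51 to 63 animals, Pearson r from -0.28 to 0.29, smallest Benjamini-Hochberg adjusted permutation p 0.336 for r and 0.505 for Spearman's rho).

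The genes most like each member were found over all libraries by the lowest of the 3 regional correlations among 11283 genes, with sex (and class in DMS) removed and the time of day left in. For Atp2a3 the 5 nearest were Sash1, Synpo2, Orai2, Zfp777 and Rbm28, with lowest correlations from 0.33 to 0.36. With time left in and NAc values that chose Atp2a3, nearness favours genes of a like phase, so the peaks given next are descriptions. Orai2, a store-operated calcium channel subunit, fitted a peak at 4.67 h in NAc (not rhythmic there, limma adjusted p 0.11), 4.25 h in DMS and 5.86 h in DLS. Rbm28, a nucleolar RNA-binding protein, was rhythmic in all 3 regions with peaks at 2.58, 1.62 and 2.04 h. For Atp2a2 the nearest were Atp2b1 (0.83), Gpr158 (0.73) and Rasgrp1 (0.73), and for Atp2b1 they were Gpr158 (0.84), Pde10a (0.83), a phosphodiesterase of medium spiny neurons, and Atp2a2 (0.83). Atp2b2 was nearest to Itpr1 (0.87), the receptor that releases calcium from the endoplasmic reticulum, then Cyfip2 (0.87) and Plcb1 (0.86). Atp2b3 had looser neighbours in Hspg2, Igf2r and Syne2 (0.55 to 0.57), and Atp2b4 closer ones in Sez6l (0.80), Ube2ql1 (0.79) and Adgra1 (0.74).

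Other calcium genes give the setting of these changes, and each count of rhythmic genes is to be read beside 2.56% of all genes in NAc, 51.3% in DMS, 25.2% in DMS with the class term and 21% in DLS. Of 9 listed partners and regulators of SERCA pumps, 2 were rhythmic in NAc, 8 in DMS (3 with the class term) and 3 in DLS, with median changes of 1.17-, 1.23- and 1.10-fold (1.095-fold in DMS with the class term) beside 1.11-, 1.16- and 1.10-fold (1.095-fold) for all genes. Calr, the main calcium buffer of the endoplasmic reticulum, was rhythmic in all 3 regions, at 1.35-fold with a peak at 20.8 h in NAc (adjusted p 1.84e-05), 1.25-fold at 19 h in DMS (0.0227) and 1.303-fold at 21.96 h in DLS (0.000346). Its DMS peak with the class term was 22.5 h, the change 1.31-fold and the adjusted p 1.11e-05. Pdia3, a folding enzyme that works with calreticulin, was rhythmic at 1.25-, 1.22- and 1.16-fold with peaks at 19.8, 17.1 and 20.6 h (1.16-fold and 20.7 h in DMS with the class term). Tmem38a, a cation channel of the same membrane, was rhythmic in DMS and DLS with peaks at 11.7 and 12.9 h (9.67 h in DMS with the class term, adjusted p 0.0381). The small peptide regulators of SERCA (Pln, Sln, Mrln, Strit1 and Erln) are not among the genes analysed here.

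Of 12 PMCA partners, 0 were rhythmic in NAc, 6 in DMS (0 with the class term) and 3 in DLS, which in DMS is not above the share of all genes. Ppp3cb, a calcineurin subunit, passed in DMS and DLS (1.21- and 1.09-fold), but not in DMS with the class term (adjusted p 0.618). Of 15 genes of calcium release and store-operated entry, 0 were rhythmic in NAc, 9 in DMS (4 with the class term) and 3 in DLS. The 3 that passed in both dorsal regions, and also with the class term, were the ryanodine receptor Ryr3 (1.41-fold in DMS, 1.23-fold in DLS), the calcium sensor Stim2 (1.13- and 1.09-fold) and Orai2 (1.36- and 1.37-fold). Orai2 peaked in the light, at 4.25 and 5.86 h, and Ryr3 and Stim2 in the dark, between 19.9 and 23.5 h. The DMS peaks with the class term were 7.39 h for Orai2, 20.6 h for Ryr3 and 19.5 h for Stim2.

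Among the other routes, 7 further extrusion genes were listed, of which 0, 1 (1 with the class term, Slc24a4) and 2 were rhythmic in NAc, DMS and DLS. They were Atp2c1, the secretory pathway pump, in DMS (1.14-fold, adjusted p 0.0184, and 0.0763 with the class term), and the sodium-calcium exchangers Slc8a3 (1.12-fold, 0.0086) and Slc8a2 (1.13-fold, 0.00984) in DLS. Of 8 genes of mitochondrial uptake, 1, 5 (3 with the class term) and 2 were, with Micu2, a regulator of the uniporter, in NAc and DMS. Of 15 voltage-gated channel genes, 0, 8 (5 with the class term) and 5 were. Cacnb2, a channel subunit, had the smallest p of these in DLS (1.36-fold, peak 17.9 h, adjusted p 4.11e-07), and was rhythmic in DMS too (1.24-fold, peak 18 h). Cacna1a, Cacnb1, Cacna2d1 and Cacna2d2 also passed in DMS and DLS, but of these only Cacnb1 did so in DMS with the class term. Of the buffers and sensors none of 12 was rhythmic in NAc, 3 of 11 in DMS (3 with the class term) and 2 of 11 in DLS. The smallest p values were those of Rcn2 and Pvalb in DMS (1.304- and 1.48-fold), of which Rcn2 alone also passed with the class term (adjusted p 0.00328, and 0.207 for Pvalb), and of Hpcal4 and Calu in DLS (1.17- and 1.08-fold). Of 6 sodium potassium ATPase genes only Atp1b1 was, in DMS (1.08-fold, adjusted p 0.00876, and 0.174 with the class term).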

How the data were processed

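RNA of each punch was sequenced as paired reads of 75 bp, per the labels' protocols. Reads were aligned with HISAT2 2.1.0 to a mouse genome and counted with HTSeq 0.10.0, per the labels' design text; the submitters' processing notes also name FastQC, Trimmomatic and the human build GRCh38, which the mouse gene identifiers contradict. Per the file headers and labels, the authors filtered low genes, normalised the counts of a region with DESeq2 and took log2. In DMS and DLS they are whole reads times 1 step per library (tolerance 0.01 reads) in all 70 and 70 libraries; in NAc no library had a step and 9 values lay below 0, so those values carry an adjustment that no label records.

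Tables held 11867, 12101 and 11394 genes in NAc, DMS and DLS (the labels state 11395 for DLS). R 4.3.3 with limma 3.58.1 and version 1.17.8 of data.table served for all fits. Rhythm was modelled as a 24 h cosine and sine, a sex term and a variance trend, fitted over all genes of a table, and called at a Benjamini-Hochberg adjusted p of less than 0.05. Sex differences of level used time as 6 levels, and those of rhythm an interaction. Regions were compared in 1 fit of 11283 shared genes in which the animal was a block (correlation estimated at 0.0393). Animals are named in the labels and pair libraries across regions. Whole reads were also tested with voom. Levels per kilobase used exon unions of GENCODE M21 (GRCm38). Promoters, listed for 4 of the 6 members, are from RefSeq. Python 3.11.15, pandas 2.3.3, numpy 2.4.6, scipy 1.17.1, Biopython 1.88 and matplotlib 3.10.9 were used for sums, sequences and plots, and permutation tests drew 100000 resamples. The fits were tested on simulated data. P-values measure the spread between animals. The members, gene lists and markers were chosen with earlier results of these data known. Named from each list were all genes rhythmic in 2 or more regions, and otherwise up to 4 with the smallest p in 1 region. Some items that meet this rule, and some sequences, are not reported here. Other scalings, filters, covariates and time models, and each library left out in turn, were tried as alternatives, and no sample was left out of the reported fits.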

Additional observations from a re-analysis of the deposited data

Results flagged for a closer look

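Among 216 groups of 1 gene, region, sex and time, 5 held a library far from the others (Dixon's test at 95%), where chance flags about 1 in 20 groups. Atp2a2 was low in the DMS male of number 45 at ZT18, at a log2 value of 14.72 beside 14.89 for the nearest of 6. Atp2a3 was low in the NAc female of number 37 at ZT10, at 5.395 beside 6.685. Atp2b1 was low in the DLS female of number 35 at ZT6, at 15.11 beside 15.53, and in the DMS male of number 34 at ZT6, at 15.26 beside 15.62. It was high in the NAc female of number 44 at ZT14, at 15.06 beside 14.61.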

How the results depend on the processing

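The counts of rhythmic members kept their side of the threshold in NAc under all 9 alternatives and 77 left-out libraries. In DMS the count of 4 became 2 with time as 6 levels, 1 with the mitochondrial rRNA share, 2 with the range of animal numbers, 2 with the number as a replicate block, 2 with the class term, 1 in the low class and 0 in the high class; 7 of 14 alternatives stayed within 1.5 times, and left-out libraries gave 3 to 4. The DMS counts of the 14 alternatives ran from 0 to 5. In DMS females the class and the range of animal numbers (up to 29, from 31) were the same split, though not in males. The alternatives with the rRNA share, the class and the range are therefore not independent. In DLS the count of 3 became 0 with equal sums and stayed in the other 10, and left-out libraries gave 3 to 4. The number of members that differ in level between the sexes in DMS went from 0 to 2 with the rRNA share, 3 with the range of numbers, 1 with the replicate block and 2 with the class term, and left-out libraries gave 0 to 1. All other counts stayed at 0. The peak of Atp2b2 in DMS moved by over 6 h with the rRNA share (amplitude 0.0255), in the high class alone (0.0128) and with 6 levels and the class term (0.0623). The cause was not tested. Same-numbered males and females are different animals: their residuals correlated at a median of -0.08, 0.18 and 0.06 in NAc, DMS and DLS, over 0.1 in 9 of 26, 16 of 25 and 8 of 24 pairs, so the paired fit is given here only (estimated correlation 0.225 for rhythm in DMS). The region fits without the animal block also called 0. Equal sums outside the ribosomal RNA genes, equal sums without 1 DLS library, the class term in region fits, and 6 levels with the class term were chosen after seeing the data. Equal sums moved the median of all genes in a library by -2.43 to 0.36 in DLS. Atp2a3 in DMS passed in 11 of 14 alternatives; depth is unknown in NAc, which limits its scarce values there.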
